A study of Homo sapiens with 4 samples.

Results

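The nucleoporins are the proteins that build the nuclear pore complex, and their RNAs were followed in senescent human fibroblasts that had or had not been depleted of G3BP1. Protein-coding genes whose symbol begins with NUP and a digit were taken, together with TPR, RANBP2, POM121, POM121C, NDC1, AAAS, SEH1L, SEC13 and GLE1, which gave 31 of the 58219 genes in the table. The rule used gene symbols and no measured value, but it was chosen with earlier results of these data known. The cells were WI-38, a line of embryonic lung fibroblasts that divides for a limited time, and total RNA was sequenced. Both groups received 10 Gy of ionizing radiation and were harvested at day 8. The siCTL group carried a scrambled siRNA and the siG3BP1 group an siRNA against G3BP1, an RNA-binding protein of stress granules, and each group had 2 libraries, A and B. No unirradiated library was part of the comparison, so every value below describes cells after radiation.

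The nuclear pore is a ring-shaped channel through the nuclear envelope by which proteins, ribosomal subunits and mRNAs pass between nucleus and cytoplasm. A Y-shaped scaffold complex forms its outer rings, an inner ring lines the membrane, and nucleoporins rich in phenylalanine-glycine repeats fill the channel and bind the transport receptors. Proteins that span the membrane anchor the pore, filaments reach into the cytoplasm, and a basket hangs into the nucleus. The scaffold proteins are among the longest-lived proteins of cells that no longer divide, so RNA levels need not mirror the amount of protein, which was not measured here.

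The siRNA sequences are shown because they define the groups and because short matches outside the target are possible. Capitals mark bases 2 to 8 counted from the 5′ end, which are the seed if the printed strand is the guide.
siG3BP1: uCAACAUGgcgaaucuuggtg
siCTL: aAGCCAAUucaucagcaaugg
The complement of the first siRNA was found at position 356 of the canonical G3BP1 transcript, over 19 bases. In the nucleoporin transcripts the longest complementary run was 6 to 9 bases for this siRNA and 6 to 11 for the control, and the median over the tested genes was 7 for both. The 7 letters complementary to the siG3BP1 seed, CATGTTG, occurred in 12 of the 28 nucleoporins that were abundant enough to test and in 27.0% of all tested genes. They were present in 6 of the 15 nucleoporins that fell and 4 of the 7 that rose. The control's letters, ATTGGCT, occurred in 10 of the 28, in 19.1% of all tested genes, in 4 of the 15 that fell and in 2 of the 7 that rose. The paper does not state whether the printed siCTL strand is the guide, so its letters may not be those of a seed. A match is a description of the letters and not of a target site.

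G3BP1 itself (chr5:151771045-151812785, GRCh38) gave 2675 (A) and 2522 (B) normalized reads with siCTL against 201 (A) and 271 (B) with siG3BP1. It changed by -3.47 in log2 units, with a standard error of 0.34 over 2 libraries per group and a limma adjusted p of 9.10e-21, and passed the test under every alternative run. Reads counted in genes ranged from 16944404 to 22745000 per library. All 9 fibroblast markers were present, at a summed 463588 to 685419 normalized reads. Epithelial markers summed to 673 and 815 in siCTL and to 1549 and 1007 in siG3BP1, and endothelial markers to 4480 and 3018 and to 1007 and 1471. Immune markers summed to 72.9 to 109 and muscle markers to 12.0 to 75.4. The defining markers SFTPC, SCGB1A1, CDH5, MYOD1, MYOG and MYH1 stood at 0 in all libraries. The part of these shifts in the results was not tested.

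After G3BP1 depletion the nucleoporin RNAs split into a larger falling group and a smaller rising group. Of the 28 tested members, 15 fell, 7 rose and 6 did not pass (limma on log2 values with Benjamini-Hochberg adjustment over 13422 genes, threshold 0.05). The background was high, since 30.5% of all tested genes fell and 25.9% rose by the same rule. Neither count held once a trend with transcript GC content was taken out of each library. With exonic GC content 0 of the 28 then passed in limma (8 at an unadjusted p under 0.05, against 3775 of 13350 genes). Not every difference shrank with this correction. In log2 units NUP93 went from 0.74 to 0.96 with exonic GC content and to 0.86 with that of the canonical transcript. NUP214 depended on the measure, going from 0.78 to 1.42 with exonic GC content but to 0.41 with that of the canonical transcript. The members' median log2 fold change was -0.82, against 0.04 over all tested genes. In 18 members both siG3BP1 libraries lay below both siCTL libraries, in 10 they lay above, and in 0 did the groups overlap. Over all tested genes these shares were 40.5% and 42.8%. The labels do not say whether libraries A and B came from separate cultures, so the spread between libraries may be technical. In the main fit the error came wholly from the trend over all tested genes. The standard errors and p-values therefore do not measure the spread of a single gene's own libraries. In bulk RNA, fewer cells of a type and less RNA per cell cannot be told apart.

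In the Y complex, the outer scaffold, 6 of 8 members fell, none rose and 2 did not pass, where 30.5% of all tested genes fell and 25.9% rose. Their median log2 fold change was -1.01, and -0.03 after correction for GC content of the canonical transcript. NUP43 (chr6:149724315-149749665), a propeller-shaped subunit, showed the largest fall of all nucleoporins. Its RNA gave 445 (A) and 397 (B) normalized reads with siCTL against 91.3 (A) and 173 (B) with siG3BP1, a change of -1.74 in log2 units (standard error 0.34, n = 2 per group, adjusted p = 1.81e-05). Where both libraries of a group are given, A comes before B. Both depleted libraries lay far below both controls, and siG3BP1 A lay well under siG3BP1 B. NUP107 (chr12:68686734-68745809), which joins the stem of the complex, went from 222 and 226 normalized reads in siCTL to 78.1 and 83.6 in siG3BP1 (log2 fold change -1.47, standard error 0.35, adjusted p = 3.21e-04). Here the libraries of a group lay close together and the groups were clearly apart. SEH1L (chr18:12947133-12987536), shared with a complex that regulates mTORC1, went from 375 and 350 to 125 and 197 normalized reads (log2 fold change -1.20, standard error 0.34, adjusted p = 0.00209).

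The other falls in the Y complex were smaller. NUP37, another propeller subunit, stood at 199 and 158 normalized reads in siCTL and at 60.5 and 109 in siG3BP1 (log2 fold change -1.12). NUP133, which lies at the base of the stem and can contact curved membrane, stood at 680 and 705 against 290 and 478 (log2 fold change -0.89). NUP160, a long arm subunit, stood at 746 and 831 against 365 and 596 (log2 fold change -0.75, adjusted p = 0.0459), the smallest change among the 15 that fell. For these 3 genes, too, the siG3BP1 A value was the lowest of the 4.

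The remaining Y complex genes lay above the controls without passing the test. SEC13 (chr3:10293131-10321178), which also builds the outer coat of the vesicles that leave the endoplasmic reticulum, measured 2270 and 2563 normalized reads in siCTL and 4454 and 3521 in siG3BP1 (log2 fold change 0.72, standard error 0.33, adjusted p = 0.0550). NUP85, the subunit of the short arm that holds SEH1L, measured 280 and 296 against 488 and 381 (log2 fold change 0.58, adjusted p = 0.126). The groups did not overlap in either gene. SEC13 passed in DESeq2 (adjusted p = 0.0233), with a correction for length and without either siG3BP1 library, and NUP85 after quantile normalization (adjusted p = 0.0349) and without siG3BP1 B.

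The inner ring was divided, with 2 members lower, 2 higher and 1 not passing, where 30.5% of all tested genes fell and 25.9% rose. NUP155 (chr5:37288137-37371181), which links the ring to the membrane, was measured at 610 and 606 normalized reads in siCTL and at 254 and 374 in siG3BP1 (log2 fold change -0.98, standard error 0.34, adjusted p = 0.0102). NUP35, its membrane-binding partner, went from 62.3 and 63.7 to 31.9 and 33.6 normalized reads (log2 fold change -0.93, standard error 0.41, adjusted p = 0.0421). Control libraries were almost equal in both genes. NUP35 had the fewest reads of the tested members, which widened its error.

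NUP188 (chr9:128947699-129007096), a large solenoid scaffold protein, rose from 1763 and 1984 normalized reads in siCTL to 4080 and 2854 in siG3BP1 (log2 fold change 0.87, standard error 0.33, adjusted p = 0.0205). NUP93 (chr16:56730105-56850286), the linker that recruits the channel proteins, rose from 743 and 794 to 1477 and 1120 (log2 fold change 0.74, standard error 0.34, adjusted p = 0.0483), the smallest rise that passed. NUP205, the relative of NUP188 that takes the equivalent place in the ring, measured 1296 and 1214 in siCTL and 1062 and 1209 in siG3BP1 (log2 fold change -0.15, adjusted p = 0.719). Its siG3BP1 B value was nearly that of siCTL B.

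The central channel trio, NUP62, NUP54 and NUP58, forms a complex of coiled coils that carries phenylalanine-glycine repeats and is held by NUP93. NUP58 (chr13:25301524-25349800) fell from 567 and 531 normalized reads in siCTL to 158 and 265 in siG3BP1 (log2 fold change -1.42, standard error 0.34, adjusted p = 3.12e-04). NUP54 (chr4:76114659-76148515) fell from 235 and 239 to 83.6 and 132 (log2 fold change -1.17, standard error 0.35, adjusted p = 0.00307). NUP62 (chr19:49906825-49929763) rose from 501 and 581 to 1179 and 759 (log2 fold change 0.81, standard error 0.34, adjusted p = 0.0319). The complex therefore held members of both directions, and siG3BP1 A was the extreme library in all 3. Genes on the same strand share exonic bases of NUP62, IL4I1 5.58% of them and ENSG00000269179 6.38%. IL4I1 was measured at 6.13 to 16.8 normalized reads, and ENSG00000269179 stood at 0 in all libraries. Such overlaps with other genes at 0 covered 7.86% of NUP133, 5.95% of POM121C and 3.53% of NUP188, and reads from shared bases are uncertain.

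The promoters of the trio are shown because these partners of a single complex moved in opposite directions. Each runs from 250 bases before the RefSeq start (GRCh38.p14) to 50 bases after it, on the strand of the gene. Capitals mark CCGGAAG, the core of ETS factor sites, or its reverse complement in NUP54 and NUP58, and GCGCATGCG, the NRF1 motif, in NUP62, where the motif on each strand overlaps the other.
NUP54, chr4:76148348-76148647, minus strand: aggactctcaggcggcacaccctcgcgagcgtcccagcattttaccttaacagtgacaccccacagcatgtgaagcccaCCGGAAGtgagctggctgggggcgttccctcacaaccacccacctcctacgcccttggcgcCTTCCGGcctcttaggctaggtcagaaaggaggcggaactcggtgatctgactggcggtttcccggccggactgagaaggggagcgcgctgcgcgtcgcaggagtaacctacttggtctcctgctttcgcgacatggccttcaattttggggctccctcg
NUP58, chr13:25301375-25301674, plus strand: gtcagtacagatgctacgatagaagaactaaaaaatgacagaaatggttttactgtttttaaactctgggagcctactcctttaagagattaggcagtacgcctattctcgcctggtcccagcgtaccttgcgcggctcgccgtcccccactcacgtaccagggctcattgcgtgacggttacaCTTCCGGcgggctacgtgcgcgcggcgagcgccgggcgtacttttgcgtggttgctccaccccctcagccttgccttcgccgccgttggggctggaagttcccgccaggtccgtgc
NUP62, chr19:49929455-49929754, minus strand: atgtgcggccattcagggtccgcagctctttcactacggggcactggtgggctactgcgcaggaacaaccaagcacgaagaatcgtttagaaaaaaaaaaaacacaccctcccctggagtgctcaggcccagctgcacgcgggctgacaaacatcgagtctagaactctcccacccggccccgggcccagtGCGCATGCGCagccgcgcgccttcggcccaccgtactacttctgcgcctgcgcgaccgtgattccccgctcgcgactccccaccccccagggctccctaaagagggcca
In these windows NUP54 and NUP58 held the ETS letters and NUP62 did not. Over all members, 29 had a promoter entry, GLE1 and NUP43 not. CCGGAAG on either strand occurred in 9 of the 14 falling members with an entry, in 2 of the 7 rising members, in 1 of the 5 that did not pass, and in 20.4% of 9637 promoters of tested genes. GCGCATGCG occurred in 2 of the 14, 1 of the 7 and 0 of the 5, against 3.93%. CCAAT occurred in 5, 2 and 3, against 36.4%, and GGGCGG in 7, 3 and 2, against 74.2%. None of these motifs contains another. Promoter GC content had medians of 62.7% for the falling and 65.0% for the rising members, against 66.3% over the tested genes. A match describes letters in the window and not a bound factor.

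NUP98 (chr11:3671083-3797792) encodes a precursor that cuts itself into NUP98, a repeat nucleoporin, and NUP96, a Y complex subunit. It measured 2760 and 2643 normalized reads in siCTL and 3142 and 3335 in siG3BP1. The difference did not pass (log2 fold change 0.26, standard error 0.33, adjusted p = 0.503), and siG3BP1 A was not its extreme library. The value was -0.07 when libraries were scaled to total reads in genes and -0.05 after quantile normalization.

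Among the membrane-anchored nucleoporins, NDC1 fell while the POM121 copies rose. NDC1 (chr1:53765460-53838860), needed to insert pores into the envelope, went from 314 and 265 normalized reads in siCTL to 145 and 153 in siG3BP1 (log2 fold change -0.95, standard error 0.34, adjusted p = 0.0135). POM121 (chr7:72879365-72951440) went from 675 and 637 to 1649 and 1124 (log2 fold change 1.05, standard error 0.34, adjusted p = 0.00578), the largest rise of all nucleoporins. POM121C (chr7:75416787-75486271) went from 522 and 543 to 1268 and 864 (log2 fold change 0.97, standard error 0.34, adjusted p = 0.0102). The copies share 31.0% and 30.9% of their transcript windows of 100 bases, so the split of reads between them is uncertain and their values are not independent. NUP210, the membrane nucleoporin of differentiated muscle and nerve cells, was below the limit for testing at 3.19 and 6.13 normalized reads in siCTL and 14.3 and 4.92 in siG3BP1.

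All 3 basket genes lay lower in siG3BP1, and TPR and NUP50 passed. Over all tested genes 40.5% lay lower without overlap and 30.5% passed as lower. The basket median was -1.03, and -0.13 after correction for GC content of the canonical transcript. TPR (chr1:186311652-186375693), the long coiled-coil protein that forms the basket filaments, was measured at 845 and 1115 normalized reads in siCTL and at 275 and 349 in siG3BP1 (log2 fold change -1.65, standard error 0.34, adjusted p = 3.63e-05). It had the widest gap between control libraries of the falling members, and still neither depleted library came near either control. NUP50 (chr22:45163841-45188015), which helps to release importin cargo, went from 554 and 536 to 232 and 307 (log2 fold change -1.03, standard error 0.34, adjusted p = 0.00721). NUP153, which ties the basket to the ring, measured 1679 and 1429 against 805 and 1153 (log2 fold change -0.69, standard error 0.34, adjusted p = 0.0683). In limma NUP153 passed with TMM factors (adjusted p = 0.0458), quantile normalization (0.0236) and scaling to total reads in genes (0.0305). It did not pass in edgeR or DESeq2 (adjusted p = 0.0542 in DESeq2), nor with the library letter as a block or the GC and length corrections.

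The cytoplasmic face was again divided, with 2 lower, 2 higher and 1 not passing, where 30.5% of all tested genes fell and 25.9% rose. RANBP2 (chr2:108719481-108785811), the main component of the filaments, fell from 1814 and 1880 normalized reads in siCTL to 557 and 791 in siG3BP1 (log2 fold change -1.47, standard error 0.34, adjusted p = 1.72e-04). It shares 14.6% of its windows of 100 bases with its RGPD copies, but 8 RGPD genes together summed to 2.20 to 10.4 normalized reads per library. NUP88 (chr17:5360963-5420160), which holds NUP214 on the pore, fell from 540 and 526 to 216 and 360 (log2 fold change -0.94, standard error 0.34, adjusted p = 0.0137).

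NUP214 (chr9:131125561-131234670), a repeat nucleoporin that binds the exportin XPO1, rose from 1307 and 1345 normalized reads in siCTL to 2747 and 1893 in siG3BP1 (log2 fold change 0.78, standard error 0.33, adjusted p = 0.0371). AAAS (chr12:53307456-53324864), which encodes ALADIN, rose from 382 and 412 to 1015 and 578 (log2 fold change 0.95, standard error 0.34, adjusted p = 0.0125). GLE1, which activates the helicase that strips proteins from exported mRNA, measured 441 and 430 against 378 and 418 (log2 fold change -0.13, adjusted p = 0.751). GLE1 and NUP205 were the members nearest to no difference.

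The relatives NUP210L and NUP62CL were not tested. NUP210L measured 2.39 and 4.29 normalized reads in siCTL and 6.60 and 3.28 in siG3BP1. NUP62CL was at 0 in all 4 libraries, which leaves room for up to 3 reads in each by counting error alone.

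**Figure D1:**
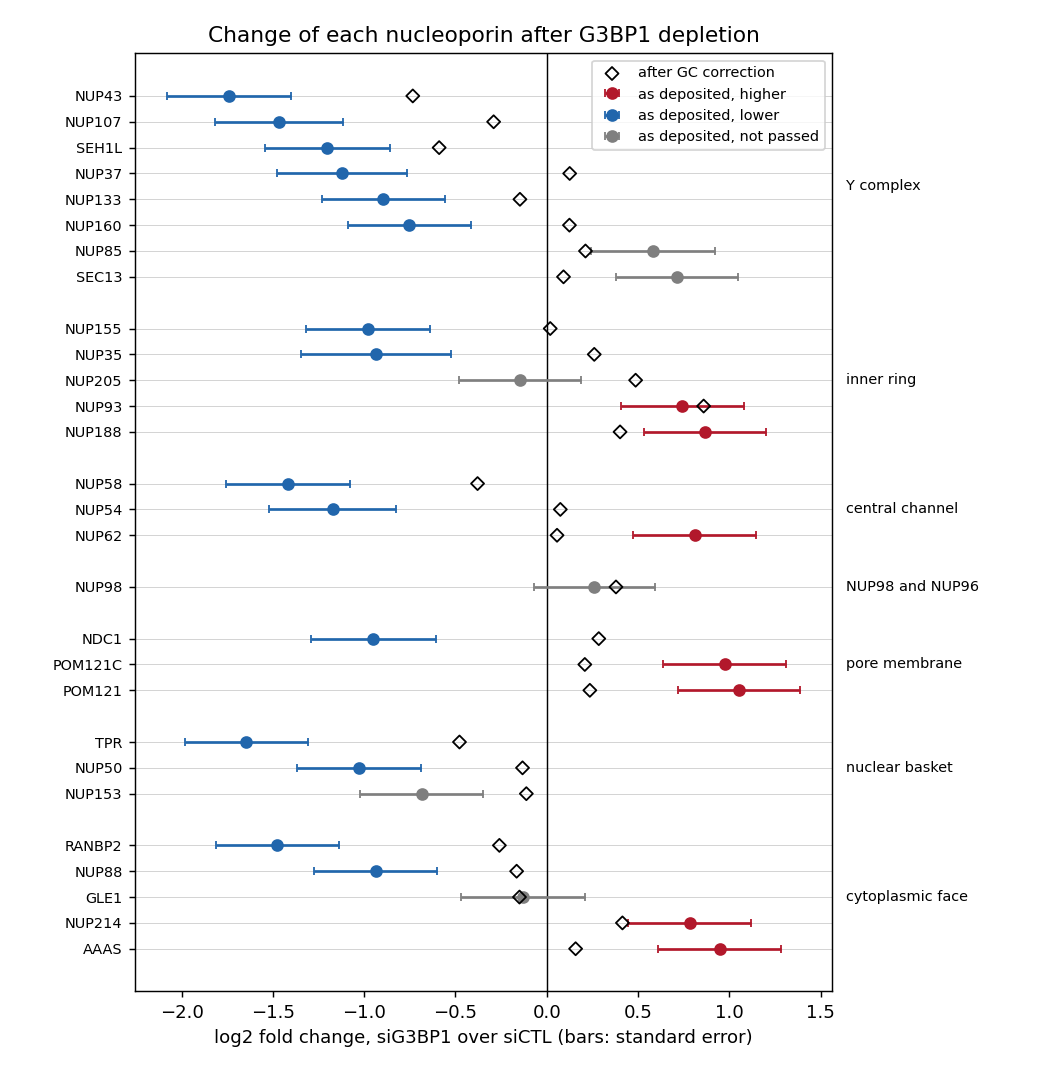
Log2 fold change of each tested nucleoporin, siG3BP1 over siCTL, as deposited (filled points, with standard error bars, coloured by whether limma called it lower, higher or neither) and after correction for transcript GC content (open diamonds). The filled points run from -1.74 to 1.05, and the diamonds gather nearer to 0, with 17 above it and 11 below.

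The siG3BP1 libraries differed in the size of the shift. siG3BP1 A lay further from the siCTL mean than siG3BP1 B in 15 of 15 falling and 7 of 7 rising members. Among members that did not pass, NUP98 went the other way, at 0.22 in A and 0.30 in B. The share over all tested genes was not counted, so the pattern is not shown to be particular to nucleoporins. Over all tested genes, deviations also followed exonic GC content more closely in siG3BP1 A (rank correlation 0.77) than in B (0.62). The median shift of the falling members was -1.50 in A and -0.87 in B on the log2 scale, and that of the rising members 1.13 and 0.54. The ratio of A to B ranged from 0.528 to 0.949 over the falling members in siG3BP1, and from 0.758 to 1.26 in siCTL. Over the rising members it ranged from 1.32 to 1.76 in siG3BP1 and from 0.862 to 1.06 in siCTL.

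Falls and rises met within subcomplexes, so the total of all members is given before the proportions of partners. Summed over all members, nucleoporins took 0.169% (Wilson 95% interval 0.167 to 0.171) and 0.167% (0.166 to 0.169) of reads in the siCTL libraries. In the siG3BP1 libraries they took 0.142% (0.140 to 0.143) and 0.150% (0.148 to 0.152), and these intervals cover counting error only. In normalized reads the sums were 22832, 23311, 26728 and 23620, so whether the total lay higher or lower depended on the scaling. The 15 falling members summed to 8209 and 8429 normalized reads in siCTL and to 2963 and 4403 in siG3BP1. The 7 rising members summed to 5892 and 6296 and to 13414 and 9193. Both sets were chosen by their calls in these same libraries, so the direction of each sum was fixed by the choice.

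Per kilobase of canonical transcript, the RNA of NUP62 was 1.42 and 1.63 times that of NUP54 in the controls and 9.44 and 3.85 times in the depleted libraries. The ratio of NUP58 to NUP54 was 1.28 and 1.18 in siCTL and 1.01 and 1.07 in siG3BP1, so both depleted libraries lay slightly below both controls. NUP93 stood at 1.19 and 1.28 times the level of NUP155 in siCTL and at 5.70 and 2.93 times in siG3BP1. For NUP188 over NUP205 the ratios were 1.50 and 1.80 against 4.23 and 2.60. For the NUP62, NUP93 and NUP188 ratios, both depleted libraries lay above both controls, with A the more extreme. NUP85 over NUP43 moved from 1.13 and 1.34 to 9.61 and 3.96. POM121 over NDC1 moved from 1.68 and 1.87 to 8.85 and 5.72. NUP214 over RANBP2 moved from 1.11 in both controls to 7.62 and 3.70. These ratios join genes chosen after their directions were known and are given as descriptions.

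**Figure D2:**
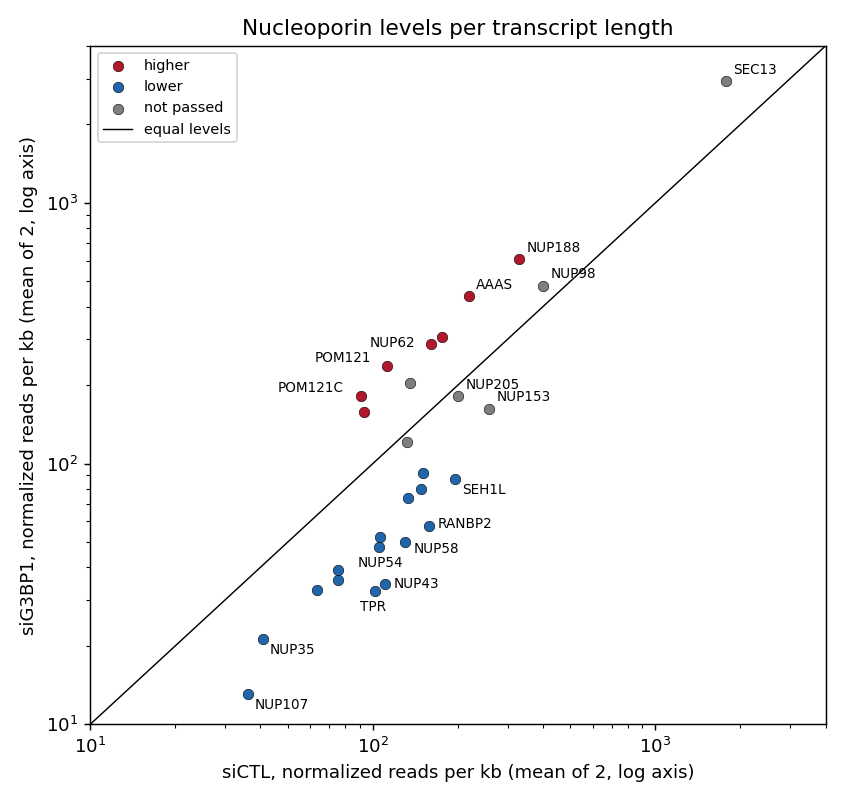
Mean level of each tested nucleoporin per kilobase of canonical transcript in siG3BP1 against siCTL, in normalized reads per kb on log axes, with a line of equal levels. SEC13 is the highest and NUP107 the lowest in both groups. Members called higher lie above the line and members called lower below it, which follows from calls made on the same values.

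Levels per length spread widely in both groups. SEC13 was the highest, at 1778 normalized reads per kb in siCTL and 2934 in siG3BP1, and NUP107 the lowest, at 36.1 in siCTL and at 12.6 and 13.5 in the siG3BP1 libraries. Between these Y complex partners the ratio was 46.8 and 51.8 in the controls and 261 and 193 in the depleted libraries. As group means, NUP98 stood at 402 in siCTL and 481 in siG3BP1, and NUP188 at 329 and 609, so these genes exchanged the second and the third rank. RANBP2 dropped from rank 10 to rank 18 of 28 and NUP153 from rank 4 to rank 11, whereas POM121 climbed from rank 17 to rank 7 and POM121C from rank 23 to rank 9. Many mid-ranked levels lay close together, such as NUP50, NUP54 and TPR between 102 and 106 in siCTL, where the control libraries of TPR alone ran from 87.6 to 116.

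The direction of change followed the base composition of the transcripts. GC content was taken from the canonical transcript of each gene in a later Gencode release than that of the study. The falling members had 38.5% to 44.6% GC with a median of 41.2%, and the rising members 47.8% to 58.0% with a median of 56.6%. All 17 tested members below 45% GC had a negative log2 fold change, and 10 of the 11 above it a positive one, GLE1 being the exception, with NUP98 joining it when libraries were scaled to total reads in genes and NUP98 in its place after quantile normalization. This split point was chosen after seeing the data. Spearman's rank correlation between GC content and log2 fold change was 0.87 over the 28 members and 0.81 over all tested genes, as a description of genes that share the same 4 libraries. Members had a median of 44.1% GC against 48.6% over all tested genes. With transcript length, the rank correlation was -0.06 over the members and -0.40 over all tested genes.

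**Figure D3:**
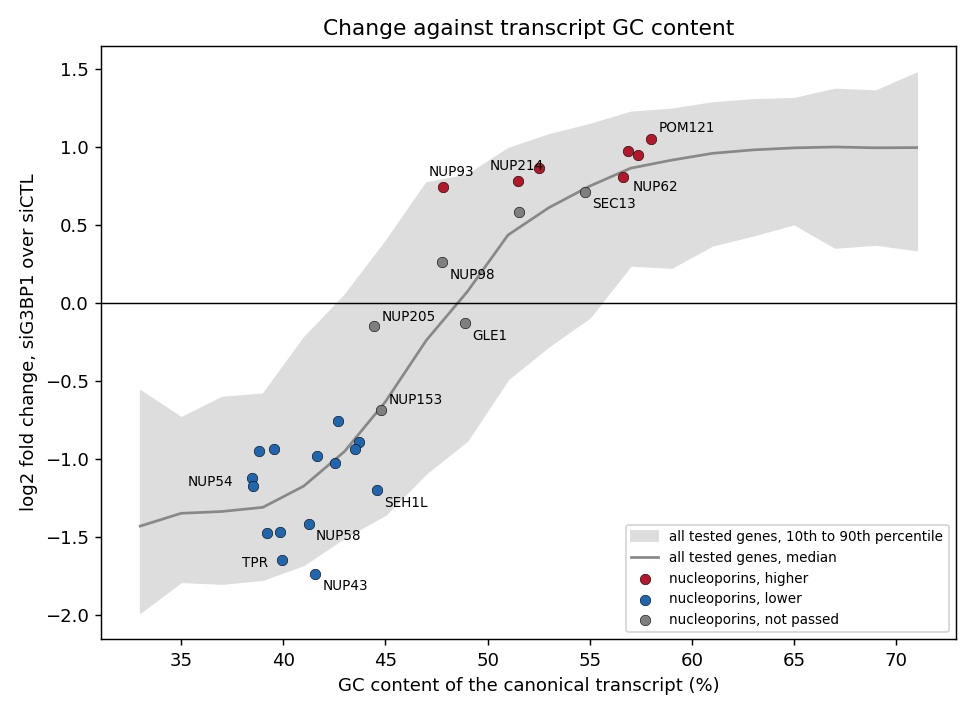
Log2 fold change (siG3BP1 over siCTL) against GC content of the canonical transcript in percent for the 28 tested nucleoporins (points, coloured by call), with the median and the 10th to 90th percentile range of all tested genes in bins of GC content. The nucleoporins run along the curve of all genes, with the falling members between 38.5% and 44.6% GC and the rising members between 47.8% and 58.0%.

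When a trend with exonic GC content was taken out of each library, limma called 0 of 28 members (smallest adjusted p = 0.0655). Over all genes 0.00749% were lower and 0% higher. At an unadjusted p under 0.05 stood 8 members, against 3775 of 13350 genes. With GC content of the canonical transcript limma also called 0 members (smallest adjusted p = 0.0972). Here 6 members stood at an unadjusted p under 0.05, against 3626 of 13350 genes. G3BP1 was then the single gene called lower, at -2.22 on the log2 scale (adjusted p = 0.0423). The interquartile range of the members' log2 fold changes narrowed from 1.86 to 0.40, and their median went from -0.82 to 0.08. Limma's prior degrees of freedom, which set how far the error is shared over genes, were 4.21 after the exonic correction and not finite before it, so a lost call is not only a smaller difference. The trend lies along the difference between the groups, and it and the depletion of G3BP1 cannot be told apart in this design.

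After the correction by canonical transcript, NUP93 had the largest positive value, 0.86, followed by NUP205 at 0.49, NUP214 at 0.41 and NUP188 at 0.40. The largest negative values were those of NUP43 at -0.73, SEH1L at -0.59 and TPR at -0.48. None of these passed on its own. With the library letter as a block beside the same correction, NUP43 (adjusted p = 0.00121), SEH1L (0.00929) and TPR (0.0202) were lower and NUP93 (9.32e-06), NUP205 (0.0117), NUP214 (0.0366) and NUP188 (0.0465) higher, against 14.5% and 14.2% of all genes. This fit was chosen after seeing the data. With exonic GC content and the block, NUP43, SEH1L and TPR were again lower, and NUP93, NUP205 and NUP214 were higher together with NUP98 (adjusted p = 0.00245) in place of NUP188 (0.0553), against 14.4% and 14.7%. The labels do not say what the letters mark. NUP54 and NUP62 were at 0.07 and 0.06 after the correction, while NUP58 stayed at -0.38.

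The counts also depended on the scaling between libraries and on the other corrections. Scaled to total reads in genes, 16 members fell and 0 rose (limma, 1 higher at an unadjusted p under 0.05), against 32.3% and 4.74% of all genes, and the median of all genes moved to -0.29. With a correction for exonic length 8 fell and 9 rose, against 23.5% and 24.1%, and the members' median was -0.45. With TMM factors 16 fell and 4 rose, against 32.3% and 22.1%. With the letter as a block, 12 fell and 1 rose (POM121, adjusted p = 0.0380), against 27.3% and 17.7%. Without siCTL A limma called 0 members (5 at an unadjusted p under 0.05) and 0.946% of all genes in either direction. Without siCTL B it called 0 members (7 at an unadjusted p under 0.05) and 0.127%. All 28 members kept their sign in both.

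Other genes of nuclear transport, from lists written out by function, also held both directions. Of the pore genes outside the membership rule, AHCTF1, which seeds pores on chromatin, went from 450 and 418 normalized reads in siCTL to 135 and 219 in siG3BP1 (log2 fold change -1.33, standard error 0.34, adjusted p = 7.01e-04). NUPL2, which binds GLE1, went from 111 and 98.7 to 37.4 and 78.7 (log2 fold change -0.94, standard error 0.37, adjusted p = 0.0252). RAE1, the mRNA export factor that binds NUP98, measured 436 and 412 against 826 and 559 (log2 fold change 0.68, adjusted p = 0.0717).

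The karyopherins are the receptors that carry cargo through the pore. Of 24 tested, 13 fell, 3 rose and 8 did not pass, where 30.5% of all tested genes fell and 25.9% rose, with a median log2 fold change of -1.04 against 0.04 over all tested genes and a median transcript GC content of 41.0%. The smallest p-values were those of TNPO1 (log2 fold change -1.72), IPO8 (-1.64) and CSE1L (-1.63), which recycles importin alpha. Among the 7 genes reported here of the Ran cycle, which sets the direction of transport, 3 rose and 4 did not pass, against the same background, with a median of 0.65. RANGAP1, the activator of GTP hydrolysis by Ran that binds RANBP2, changed by 1.23, NUTF2, the importer of Ran, by 1.04 and RANBP3, a cofactor of the exportin XPO1, by 0.95. Among 23 mRNA export genes 6 fell, 6 rose and 11 did not pass, which is close to the background of 30.5% and 25.9%, with a median of 0.20, and FYTTD1 (-1.61), THOC2 (-1.56) and THOC1 (-1.56) had the smallest p-values. After either GC correction limma called 0 genes of these lists.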

How the data were processed

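Total RNA was sequenced from WI-38 cells, 2 libraries per group. Per the paper's methods, the authors trimmed reads with Trimmomatic 0.35, mapped them to GRCh38 with STAR and applied DESeq2 1.22.1 for normalization of the counts. The libraries were stranded, and RSEM and TopHat2 2.0.10 are named in the submitters' processing notes. The deposited signal is normalized reads, that is, the read count of a gene over the size factor of the library (1.25, 1.63, 0.910 and 1.22 for siCTL A, siCTL B, siG3BP1 A and siG3BP1 B). Undoing this gave whole reads for 100% of values within 1e-06 reads. Every per-sample column was used. Columns of the authors' group summaries, fold changes, standard errors and p-values in the deposited table were not used.

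Genes averaging 10 or more normalized reads over the libraries (13422 of 58219) were tested with limma 3.58.1 in R 4.3.3, two-sided with a mean-variance trend, on log2(value + 0.5), so fold changes of low genes are understated. P-values were adjusted by the Benjamini-Hochberg method at a threshold of 0.05. With 2 libraries per group the error rests on the trend over all genes. On the recovered reads, edgeR 4.0.16 called 14 members lower and 7 higher, against 3992 and 3561 of the 13422 genes. DESeq2 1.42.0 called 13 and 8 members, against 3393 and 3240 genes. Limma, without a block or correction, was also run on simulated counts with known changes. These counts held no GC trend between groups, and the other tools and settings were not run on them.

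GC content and length came from Gencode release 44 on GRCh38, and promoters from RefSeq (GRCh38.p14). Gene coordinates are those deposited by the authors. The GC and length corrections subtracted a loess trend (span 0.3) fitted, library by library, to the deviations from gene means. Alternatives were other pseudocounts, filters, scalings, tools, the letter block, these corrections and each library left out. The correction by canonical transcript, alone and with the block, was added after seeing the data. Named genes are all members, G3BP1, the pore genes AHCTF1, RAE1 and NUPL2, and the 3 genes with the smallest p of each transport list. A gene of the Ran cycle list is not reported here and is left out of that list's count and median. The members, lists and alternatives were chosen with earlier results of these data known.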

Additional observations from a re-analysis of the deposited data

How the results depend on the processing

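The count of 15 lower nucleoporins was 12 to 16 under other pseudocounts, filters, scalings, the replicate block, edgeR, DESeq2 and the omission of either siG3BP1 library. It went to 8 with the length correction (3140 over all genes), to 0 with either GC correction and to 3 with either GC correction and replicate block. The count of 7 higher went to 4 with TMM, to 1 with the replicate block, to 0 with total scaling, to 0 with either GC correction and to 4 with either GC correction and replicate block, with NUP98 in the exonic and NUP188 in the canonical fit as the member not shared. Leaving out 1 library gave 0 to 16 lower and 0 to 9 higher. Over all genes, 4095 were lower, 1 after either GC correction, 1923 with the exonic correction and replicate block and 1942 with the canonical correction and replicate block, and 12 to 5050 with 1 library left out. There were 3481 higher, 636 with total scaling, 0 after either GC correction, 1962 and 1890 with these and the replicate block, and 5 to 4575 with 1 library left out. Where 1 library was left out, its group's lone library was assumed to vary like the other group. The deviations of libraries of the same letter correlated at 0.30 (0.48 after the exonic GC correction). With only 2 shared letters and no label for what they mark, the letters were not taken as pairs.

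The sign of the log2 fold change turned for these genes, with values after the exonic and the canonical GC correction, equal with and without the block: NDC1 0.19 and 0.29, NUP155 0.0792 and 0.0193, NUP160 0.24 and 0.12, NUP205 0.56 and 0.49, NUP35 0.22 and 0.26, NUP37 0.11 and 0.13, NUP54 0.130 and 0.0747. GLE1 turned to 0.14 with the exonic correction, 0.35 with the length correction and 0.0073 with quantile normalization. NUP205 turned to 0.16 with the length correction, NUPL2 to 0.0637 with the canonical correction, and NUP98 to -0.0503 with quantile normalization and -0.0679 with total scaling. The cause was not tested. Of the other members, NUP214 stood at 1.42 with exonic and 0.41 with canonical GC content. The median of all genes moved to 0.10 with quantile normalization and to -0.04 with TMM.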
